A study of Mus musculus with 6 samples.

Results

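The genes described are those of the mitochondrial ribosomal proteins, taken as the protein-coding genes whose symbol begins with Mrpl or Mrps followed by a digit. There are 78 of them among the 18908 genes of the table, 49 with large-subunit names (Mrpl) and 29 with small-subunit names (Mrps). The choice used names alone and no measured value. Transcripts were measured by RNA sequencing in 6 mouse libraries labelled as bone marrow-derived macrophages (BMDM). Libraries 1 to 3 of the control carry the genotype label WT and a description that names a control shRNA, and libraries 1 to 3 of the other group carry the label VprBP1 Knockdown and a description that names an shRNA against VprBP. An shRNA is a short hairpin RNA meant to lower the transcript it matches, and VprBP is another name for the product of Dcaf1, which brings substrates to a cullin-RING ubiquitin ligase. The study's title concerns VprBP in osteoclast differentiation. The labels give no time, vector, hairpin sequence, mouse strain or age, and give no word on whether replicates are separate animals, cultures or preparations. The p-values speak only for the spread among these 6 libraries, and that spread may be technical.

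Mitochondria make a handful of respiratory chain proteins themselves, on ribosomes of their own. The ribosomal RNAs of this mitoribosome are transcribed from the mitochondrial genome, whereas its proteins are encoded in the nucleus, translated in the cytosol and imported. The small subunit binds the messenger RNA and decodes it, and the large subunit joins the amino acids and passes the new chain towards the inner membrane. Many of the proteins have bacterial homologues, and the rest are found only in mitochondria. Each protein is present once per ribosome in most cases, so the transcripts belong to a complex of fixed composition.

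Total counts ranged from 16839445 to 21838875 per library. Levels are in CPM, a gene's share of its library's counts after TMM scaling, and every log2 difference is that of the VprBP-labelled against the control-labelled libraries. Dcaf1, the targeted gene, was measured at 42.2, 43.5 and 40.7 CPM under the control label and 36.0, 34.6 and 36.8 CPM under the VprBP label (log2 difference -0.24, SE 0.07, edgeR adjusted p = 0.00625). It was 1.18-fold lower, a small difference that was no longer called with scaling by library size only (log2 difference -0.12, adjusted p = 0.137). The labelled cell type was not borne out by its markers, since 12 of 18 macrophage genes, Csf1r, Adgre1 and Spi1 among them, have no row, and the rest summed to 37.3 to 40.7 CPM in the control-labelled and 20.4 to 21.3 CPM in the VprBP-labelled libraries. Cd68 made up most of the control-labelled sum (31.6 CPM against 1.01 in the VprBP-labelled libraries), while Mertk, Laptm5 and Lyz2 were called higher and Cd14 was not called. The 10 pigment cell genes of a second list summed to 21123 to 21505 and 19666 to 20176 CPM, with 5 of them called higher and 4 lower. Libraries are for this reason named by their label, and no direction is ascribed to loss of VprBP. The 8 Schwann cell genes summed to 60.3 to 65.0 and 1025 to 1102 CPM, with 7 called higher and 1, Egr2, lower. Mbp made up most of the VprBP-labelled sum (20.6 and 694 CPM). The 6 stromal cell genes with a row summed to 47.3 to 50.3 and 366 to 419 CPM, most of the latter from Col1a1 (14.9 and 302 CPM). Of the 5 tested, 4 were called higher and 1, Dcn, lower. Transcripts of the mitochondrial genome took 8.65% to 9.48% and 4.89% to 5.56% of the counts. These sums and shares moved with the labels, as do the results below, and their part in those results was not tested. In bulk libraries, fewer cells of a type and less RNA per cell cannot be told apart.

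Transcripts of the mitoribosome were on balance lower in the VprBP-labelled libraries, the small subunit more than the large. All 78 members had enough counts to be tested, and 43 were lower, 7 higher and 28 not called at an edgeR adjusted p below 0.05. Over all 14641 genes tested, 75.0% were called, 37.0% lower and 37.9% higher. Of the members, 55.1% were lower and 8.97% higher, so the lower share lay above the background and the higher share well below it. The groups did not overlap for 46 members that lay lower and 7 that lay higher, against 77.2% of all genes in either direction, 38.2% lower and 39.0% higher. The changes were modest in size. The VprBP-labelled level was at least 1 log2 unit lower for 10 called members, a share near the 14.2% of all genes, and the largest rise was 0.51 (Mrpl49), while 19.4% of all genes rose by at least 1. The members' log2 differences ran from -1.85 to 0.51, with a median of -0.30 against -0.01 over all genes tested.

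Set side by side, 23 of 49 large-subunit members were lower (46.9%), 6 higher and 20 not called, and 20 of 29 small-subunit members were lower (69.0%), 1 higher and 8 not called. The median log2 difference was -0.24 for the large and -0.55 for the small subunit, with quartiles of -0.56 and 0.06 for the large and -0.89 and -0.15 for the small. The summed level of the large-subunit members was 1558, 1544 and 1596 CPM under the control label and 1299.6, 1270.5 and 1306 CPM under the VprBP label, 82.5% of the control-labelled mean. That of the small-subunit members was 981, 997 and 1031 CPM and 663, 651 and 661 CPM, 65.6% of the control-labelled mean. Neither sum overlapped between the labels. Within each library the ratio of the large to the small sum, which no scaling between libraries can move, was 1.56 ± 0.0226 in the control-labelled and 1.96 ± 0.0119 in the VprBP-labelled libraries (SD, n = 3 each). The 2 sets of ratios did not overlap, and as sums over chosen members they were given no test. With scaling by library size only, which moved the median of all genes to 0.10, the large subunit had 11 higher and 19 lower members and the small subunit 3 and 20. Among the 28 members whose deposited counts were whole in every library, 7 of 18 large and 5 of 10 small members were lower, with medians of -0.22 and -0.36. Both lower shares were smaller than among all members, and that of the large subunit lay near the 37.0% of all genes tested. Counts that are not whole can arise when a read is divided among genes.

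**Figure D1:**
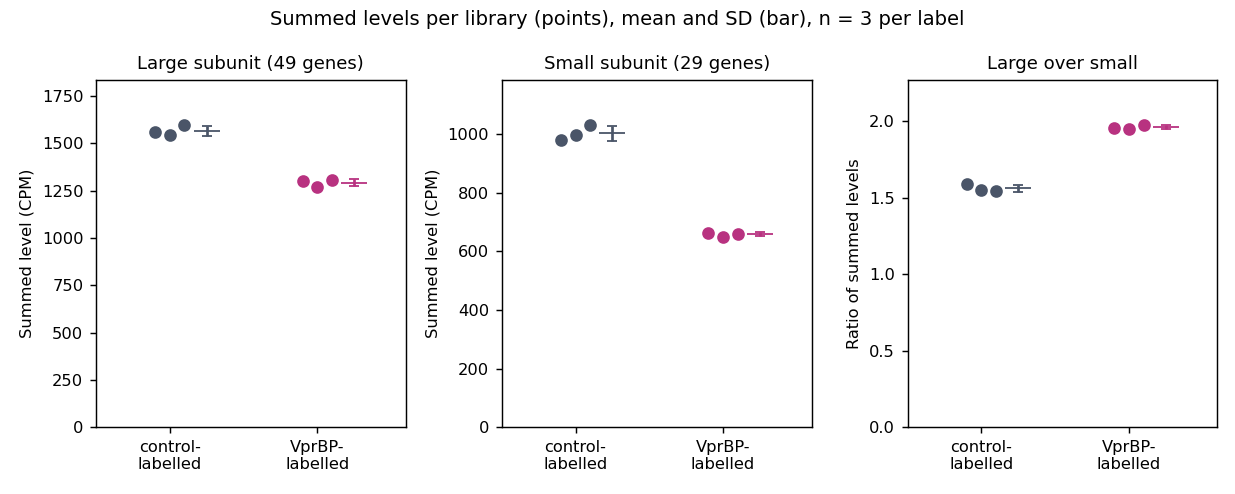
Summed level in CPM of the 49 large-subunit and 29 small-subunit transcripts in each library, and the ratio of the large to the small sum, by label; points are libraries, and the bar beside them is the mean with its SD. The VprBP-labelled sums lie below all control-labelled sums, and the ratio lies at 1.96 against 1.56.

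**Figure D2:**
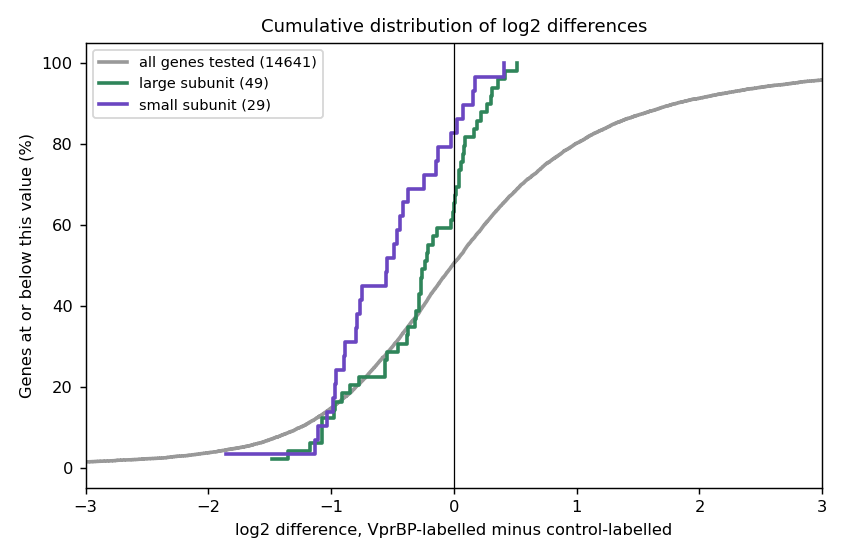
Share of genes, in percent, at or below each log2 difference for all 14641 genes tested, the large subunit and the small subunit. Both subunit curves reach their end near 0.5, where the curve of all genes still has a long upper tail, and the small-subunit curve lies to the left of the large-subunit curve over most of the range.

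The promoters of the members can be compared as well, since the choice by name did not use them. RefSeq windows of 250 bases before to 50 after a start (build GRCm38.p6) were at hand for 69 of the 78 members, 75 windows in all. The motif CCGGAAG, the core bound by ETS factors such as GABP, stood on either strand in 34.7% of the members' windows, against 8.86% of all windows and 17.1% of those of the protein-coding genes tested. GCGCA followed by any base and GCGC, the site of NRF1, a regulator of nuclear genes for mitochondrial proteins, stood in 17.3%, 4.60% and 9.79%, and AAGATGGCG, a site of YY1, in 10.7%, 1.40% and 2.90%. The E-box CACGTG (9.33%, 7.15% and 9.85%) and the GC box GGGCGG (52.0%, 35.7% and 62.3%) were not more frequent than in the tested protein-coding genes. The motifs were searched on both strands and their matches may overlap. The ETS core stood in 35.0% of the 40 windows of members called lower, in 42.9% of the 7 windows of members called higher and in 32.1% of the 28 windows of those not called, and in 31.2% and 40.7% of large-subunit and small-subunit windows. In windows of members called lower, called higher and not called, the NRF1 site stood in 17.5%, 0% and 21.4%, and the YY1 site in 15.0%, 14.3% and 3.57%. The E-box stood in 12.5%, 14.3% and 3.57% of them, and the GC box in 57.5%, 57.1% and 42.9%. The windows are few, and differences by call or subunit were not tested. These shares describe letters in a window, not bound factors.

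Stretches before the start that hold no annotated exon are shown for 4 members that were lower and 2 that were higher, as examples of such windows with and without a match. They run 5′ to 3′ on the gene's strand, and capitals mark a match to any of the 5 motifs. Mrpl32 (chr13:14613166-14613239, minus strand) and Mrpl9 (chr3:94443086-94443317, plus strand) were among the most lowered members. Mrpl22 (chr11:58171414-58171660, plus strand) and Mrps22 (chr9:98601680-98601929, minus strand) were the most lowered members of each subunit with the ETS core in such a stretch, and they and Mrpl9 were chosen after values and matches had been seen. Which of the shown stretches hold a match was thus set in part by the choice, and says nothing of the direction of change. Mrpl49 (chr19:6057786-6057843, minus strand) and Mrpl28 (chr17:26123255-26123499, plus strand) were the most raised. The Mrpl9 stretch ends in a match to the NRF1 site, the Mrpl22 and Mrps22 stretches hold the ETS core close to the start, and the Mrps22 stretch also holds a GC box. No match lay in the stretches of Mrpl32, Mrpl49 and Mrpl28.
Mrpl32: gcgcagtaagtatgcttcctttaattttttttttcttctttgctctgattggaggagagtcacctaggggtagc
Mrpl9: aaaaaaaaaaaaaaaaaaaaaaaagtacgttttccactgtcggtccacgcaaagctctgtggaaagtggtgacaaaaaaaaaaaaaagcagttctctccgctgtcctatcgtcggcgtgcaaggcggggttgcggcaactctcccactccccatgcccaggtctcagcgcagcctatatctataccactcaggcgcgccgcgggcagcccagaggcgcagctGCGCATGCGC
Mrpl22: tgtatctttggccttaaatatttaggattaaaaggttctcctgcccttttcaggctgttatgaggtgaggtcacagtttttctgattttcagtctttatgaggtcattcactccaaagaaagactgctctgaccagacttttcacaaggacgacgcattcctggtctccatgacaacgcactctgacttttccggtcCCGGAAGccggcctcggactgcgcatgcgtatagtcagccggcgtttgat
Mrps22: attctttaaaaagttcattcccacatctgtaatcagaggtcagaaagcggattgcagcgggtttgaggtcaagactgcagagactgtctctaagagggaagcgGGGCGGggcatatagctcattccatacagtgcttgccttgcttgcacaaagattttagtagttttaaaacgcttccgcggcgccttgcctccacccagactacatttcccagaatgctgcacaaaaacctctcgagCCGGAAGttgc
Mrpl49: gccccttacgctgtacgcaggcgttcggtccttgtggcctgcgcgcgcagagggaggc
Mrpl28: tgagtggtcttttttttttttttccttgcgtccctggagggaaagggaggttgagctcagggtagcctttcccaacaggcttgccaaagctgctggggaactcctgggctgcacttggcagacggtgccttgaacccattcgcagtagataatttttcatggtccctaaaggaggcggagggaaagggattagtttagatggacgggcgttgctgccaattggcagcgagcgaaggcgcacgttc

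**Figure D3:**
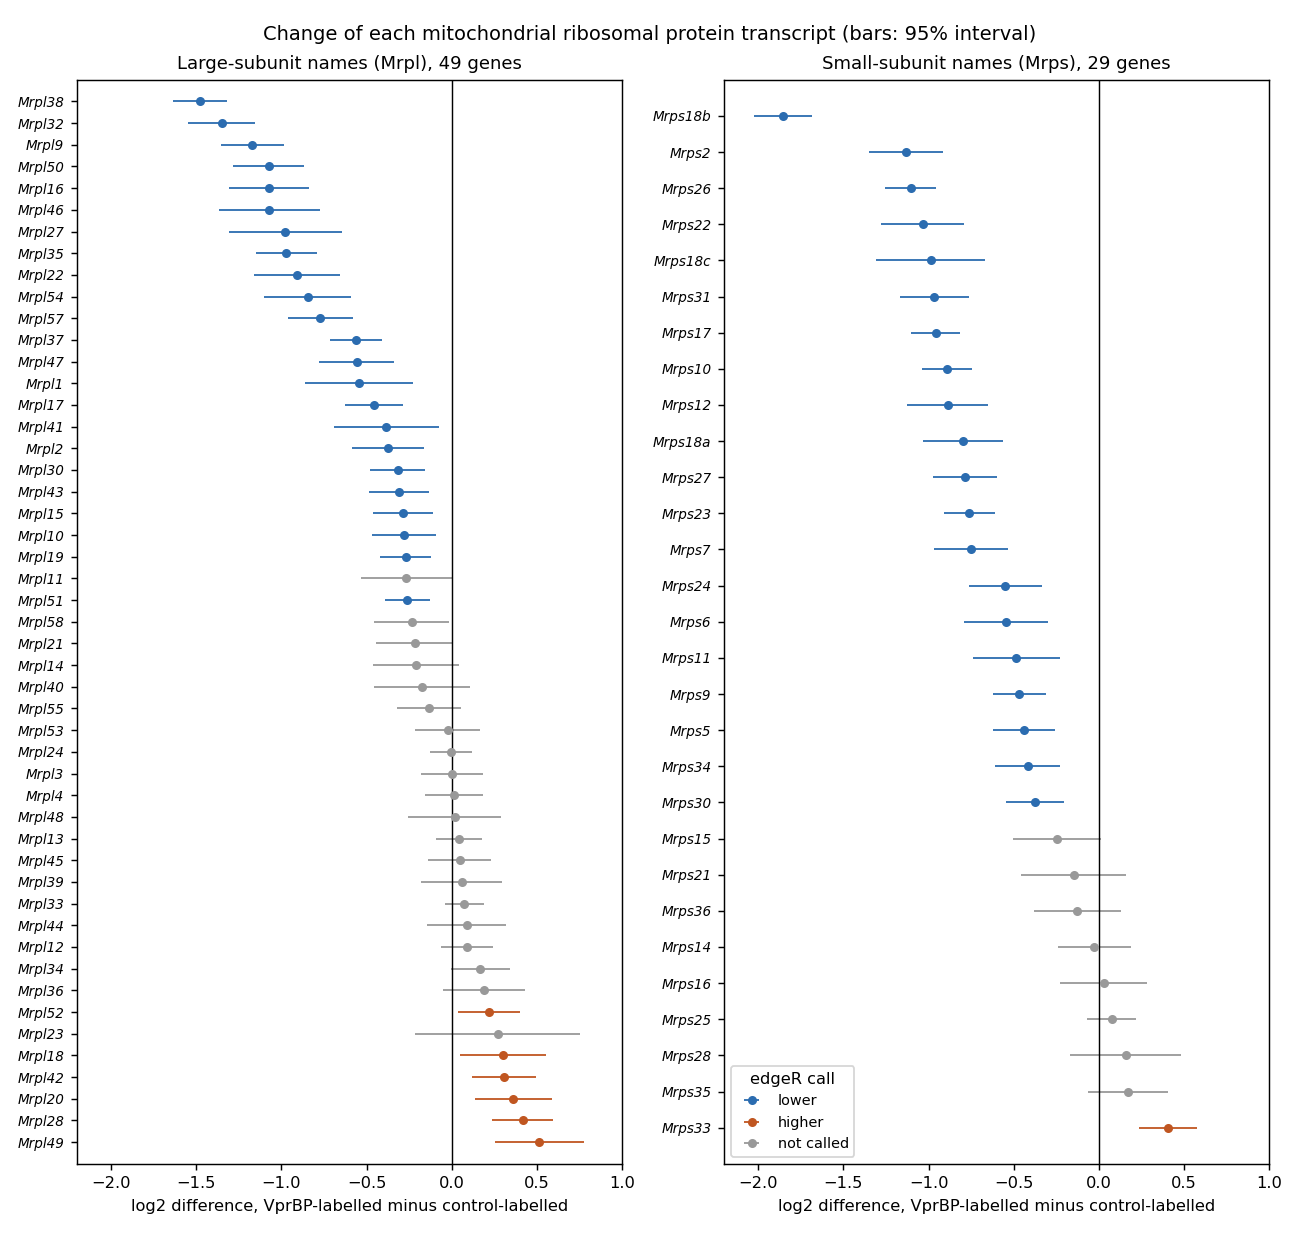
Log2 difference (horizontal axis, VprBP-labelled minus control-labelled) of each of the 78 members, large subunit on the left and small subunit on the right, with 95% intervals from the edgeR fit; blue marks lower, orange higher and grey not called. The small-subunit panel has 1 higher gene, Mrps33, and the large-subunit panel has 6.

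In the large subunit the strongest fall was that of Mrpl38, a mitochondria-specific protein of the central protuberance (GRCm38 chromosome 11, 116131817 to 116138868, minus strand). It was measured at 80.6, 76.9 and 81.8 CPM under the control label and 30.7, 29.8 and 25.4 CPM under the VprBP label, a 2.79-fold fall (log2 difference -1.48, SE 0.07, edgeR adjusted p = 3.49e-12). Mrpl32, which must be trimmed by a protease of the inner membrane before it joins the ribosome, stood at 45.1, 36.9 and 39.6 CPM under the control label and 16.1, 15.2 and 16.5 CPM under the VprBP label. Its fall was 2.55-fold (log2 difference -1.35, SE 0.09, edgeR adjusted p = 3.41e-10), and the highest VprBP-labelled library lay far below the lowest control-labelled one. Mrpl9, a homologue of bacterial L9, stood at 42.1, 43.6 and 48.7 CPM under the control label and 20.2, 18.2 and 21.2 CPM under the VprBP label, 2.25-fold lower (adjusted p = 1.01e-09). Mrpl50, found only in mitochondria, stood at 32.5, 29.7 and 31.4 CPM under the control label and 14.7, 16.4 and 13.4 CPM under the VprBP label (2.11-fold lower, adjusted p = 1.70e-08). In each of these 4 genes the 3 VprBP-labelled libraries lay close together and did not overlap the control-labelled ones. Lack of overlap was a condition for choosing the members shown for their largest changes, in both subunits and directions. For them it is therefore no further result.

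Mrpl16, whose bacterial homologue lies near the site of peptide bond formation, stood at 23.3, 23.2 and 25.6 CPM under the control label and 10.03, 11.7 and 12.5 CPM under the VprBP label, 2.10-fold lower (adjusted p = 9.03e-08). Mrpl46, like Mrpl38 a protein of the central protuberance, stood at 13.02, 15.4 and 15.2 CPM under the control label and 7.60, 6.43 and 6.67 CPM under the VprBP label, 2.10-fold lower (adjusted p = 1.72e-06). Groups did not overlap for either gene. Close behind were Mrpl27 (1.97-fold lower), Mrpl35 (1.96-fold), Mrpl22, which lines the exit tunnel (1.88-fold), Mrpl54 (1.80-fold) and Mrpl57 (1.71-fold). These 11 genes fell by more than 1.5-fold. The other 12 large-subunit members that were lower fell by less, among them Mrpl37 (1.48-fold), Mrpl47 (1.47-fold), Mrpl17 (1.37-fold) and, with the smallest called fall, Mrpl51 (1.20-fold, 56.9 ± 2.10 and 47.4 ± 0.931 CPM). The calls of Mrpl41, Mrpl15, Mrpl10 and Mrpl19 were lost with scaling by library size only (adjusted p = 0.105, 0.0728, 0.105 and 0.0600). Without VprBP-labelled library 2, Mrpl41 and Mrpl10 were not called either (adjusted p = 0.0816 and 0.0519), nor was Mrpl41 without control-labelled library 3 (adjusted p = 0.0887).

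The 6 large-subunit members that rose did so by 1.16-fold to 1.43-fold. Mrpl49, a mitochondria-specific protein (GRCm38 chromosome 19, 6053622 to 6057785, minus strand), stood at 10.05, 10.6 and 9.55 CPM under the control label and 14.5, 15.3 and 13.2 CPM under the VprBP label (log2 difference 0.51, SE 0.12, edgeR adjusted p = 0.00120). Mrpl28, a homologue of bacterial L28, stood at 25.7, 25.9 and 23.9 CPM under the control label and 36.0, 31.1 and 33.6 CPM under the VprBP label (log2 difference 0.41, SE 0.09, edgeR adjusted p = 2.69e-04). In both genes all VprBP-labelled libraries lay above all control-labelled ones. Mrpl20, whose bacterial homologue acts early in the assembly of the large subunit, stood at 23.0, 17.7 and 20.8 CPM under the control label and 28.0, 27.5 and 23.6 CPM under the VprBP label, 1.28-fold higher (adjusted p = 0.00590). Mrpl42, found only in mitochondria, stood at 32.5, 30.8 and 26.0 CPM under the control label and 35.4, 36.5 and 39.0 CPM under the VprBP label, 1.24-fold higher (adjusted p = 0.00456). Mrpl18, of the central protuberance, stood at 10.9, 11.6 and 11.8 CPM under the control label and 13.2, 14.6 and 14.4 CPM under the VprBP label, 1.23-fold higher (adjusted p = 0.0299). The groups of these 3 genes did not overlap, although for Mrpl20 the margin was under 1 CPM. Mrpl52 was 1.16-fold higher (35.5 ± 4.57 and 41.2 ± 1.56 CPM), with its groups overlapping. The calls of Mrpl52 and Mrpl18 were weak. Mrpl52 was not called without control-labelled library 1 or 2 (adjusted p = 0.141 and 0.166) or without VprBP-labelled library 1 or 3 (adjusted p = 0.0614 and 0.0829). Mrpl18 was not called without control-labelled library 1 or 2 (adjusted p = 0.0882 and 0.0595) or VprBP-labelled library 2 or 3 (adjusted p = 0.0751 and 0.0641).

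Among the 20 large-subunit members not called, log2 differences lay between -0.27 and 0.27. The most abundant was Mrpl33, a small homologue of bacterial L33, at 77.9, 76.0 and 75.4 CPM under the control label and 78.7, 79.3 and 83.2 CPM under the VprBP label. Its VprBP-labelled libraries all lay just above the control-labelled ones, but the difference was not called (log2 difference 0.07, adjusted p = 0.236). Mrpl24, at the exit tunnel, stood at 66.3, 68.8 and 65.4 CPM under the control label and 65.7, 64.4 and 69.5 CPM under the VprBP label (log2 difference -0.01, adjusted p = 0.929), and Mrpl13 at 59.5, 56.4 and 63.2 CPM under the control label and 59.8, 63.9 and 61.0 CPM under the VprBP label (log2 difference 0.04, adjusted p = 0.543). The groups overlapped in both. The value of Mrpl24 is uncertain, because 26.3% of its exon bases lie opposite Rrnad1. Mrpl12, which forms the stalk that recruits translation factors and has also been reported to bind the mitochondrial RNA polymerase, stood at 34.6, 36.8 and 35.5 CPM under the control label and 39.3, 36.3 and 38.0 CPM under the VprBP label. Its log2 difference was 0.09 with a 95% interval of -0.07 to 0.24 (adjusted p = 0.280). Mrpl33, Mrpl13 and Mrpl12 were called higher with scaling by library size only (adjusted p = 0.00487, 0.0326 and 0.0178), as were Mrpl34 and Mrpl36 (adjusted p = 0.00527 and 0.0240). Mrpl34 was also called higher without VprBP-labelled library 2 (adjusted p = 0.0362), and Mrpl14 lower without VprBP-labelled library 1 (adjusted p = 0.0412). Mrpl58, a peptidyl-tRNA hydrolase built into the ribosome, stood at 22.5 ± 1.05 and 19.1 ± 2.27 CPM and just missed the threshold (log2 difference -0.24, adjusted p = 0.0501). It was called lower without control-labelled library 3 or VprBP-labelled library 3 (adjusted p = 0.0400 and 0.0169), and also with upper quartile scaling, without genes of the mitochondrial genome, with a filter at 1 CPM and by limma-voom (adjusted p = 0.0334, 0.0463, 0.0355 and 0.0428). Mrpl11 and Mrpl21 were called lower with upper quartile scaling (adjusted p = 0.0470 and 0.0478), and Mrpl52 was then not called (adjusted p = 0.0506). Mrpl23 is uncertain, since its pseudogene Mrpl23-ps1 was given more counts (16.7 ± 2.95 and 16.01 ± 3.06 CPM) than the gene itself (6.07 ± 1.53 and 7.26 ± 2.08 CPM), and it was called higher without VprBP-labelled library 2 (adjusted p = 0.0493).

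**Figure D4:**
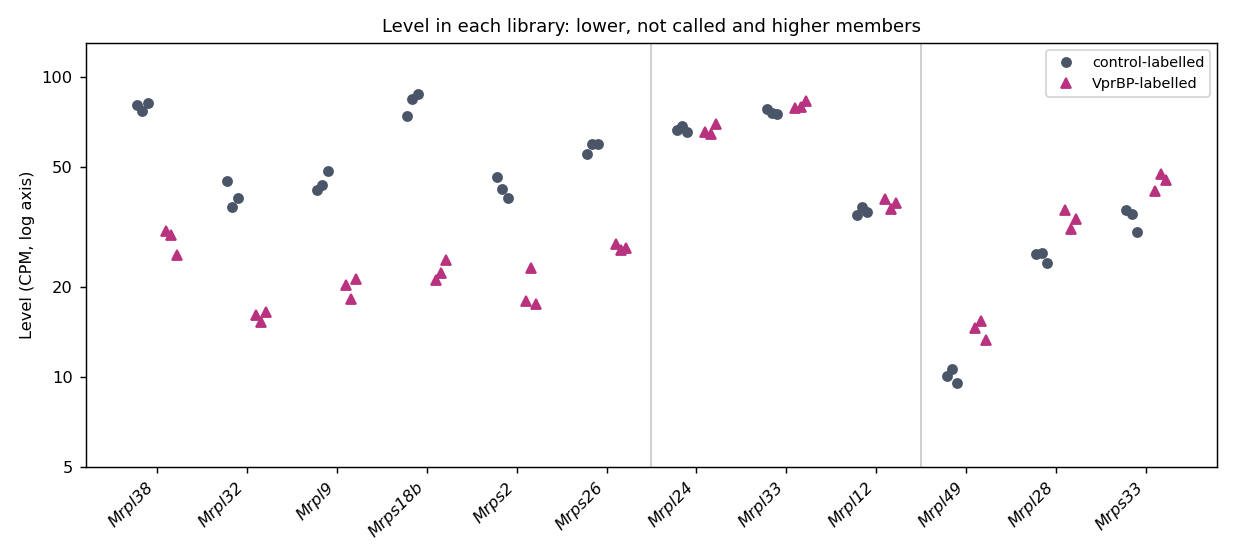
Level in CPM (log axis) of 12 members in each library, circles for control-labelled and triangles for VprBP-labelled libraries: 6 that were lower on the left, 3 not called in the middle and 3 higher on the right. The groups are apart on the left and the right, as the choice of those members required, and Mrps18b shows the widest gap.

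In the small subunit the fall of Mrps18b was the largest of all 78 members (ENSMUSG00000024436.16; GRCm38 chromosome 17, 35910379 to 35916389, minus strand). It was measured at 74.0, 84.2 and 87.5 CPM under the control label and 21.1, 22.1 and 24.6 CPM under the VprBP label, 3.62-fold lower (log2 difference -1.85, SE 0.08, edgeR adjusted p = 4.34e-13). The groups lay far apart, but the value carries a doubt over counting: 30.5% of its exon bases lie opposite Gm16279, a gene of the other strand, and its counts were not whole in any library. Mrps2, whose bacterial homologue is among the last proteins to join the small subunit, stood at 46.3, 42.2 and 39.5 CPM under the control label and 17.8, 23.1 and 17.5 CPM under the VprBP label, 2.20-fold lower (adjusted p = 1.52e-08). Mrps26, found only in mitochondria, stood at 55.2, 59.9 and 59.9 CPM under the control label and 27.8, 26.6 and 26.9 CPM under the VprBP label, 2.15-fold lower (adjusted p = 1.13e-10). Mrps22, also specific to mitochondria, stood at 26.2, 25.3 and 26.6 CPM under the control label and 14.1, 13.6 and 10.4 CPM under the VprBP label, 2.05-fold lower (adjusted p = 2.12e-07). None of these groups overlapped. A further 9 members fell by more than 1.5-fold, namely Mrps18c, Mrps31 (1.96-fold), Mrps17 (1.94-fold), Mrps10 (1.86-fold), Mrps12, the homologue of the bacterial decoding protein S12 (1.85-fold), Mrps18a, Mrps27 (1.73-fold), Mrps23 (1.69-fold) and Mrps7 (1.68-fold). The other 7 that fell, by less, were Mrps24, Mrps6, Mrps11, Mrps9, Mrps5, Mrps34 and Mrps30. For all 20 the groups did not overlap, and all 20 kept their call with scaling by library size only.

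The single small-subunit member that rose was Mrps33, a mitochondria-specific protein (GRCm38 chromosome 6, 39801804 to 39810988, minus strand). It stood at 35.9, 35.0 and 30.4 CPM under the control label and 41.7, 47.4 and 45.4 CPM under the VprBP label, 1.33-fold higher (log2 difference 0.41, SE 0.08, edgeR adjusted p = 2.07e-04), with no overlap between the groups. Among the 8 not called, Mrps25 was the most abundant, at 50.2, 46.2 and 52.8 CPM under the control label and 50.8, 52.4 and 53.9 CPM under the VprBP label (log2 difference 0.07, adjusted p = 0.336). Its value is uncertain, because 69.8% of its exon bases lie opposite Nr2c2. Mrps14, Mrps16, Mrps21 and Mrps28 were not called either, with log2 differences of -0.03, 0.03, -0.15 and 0.16. Mrps15 (log2 difference -0.24, adjusted p = 0.0797) was called lower without control-labelled library 1 or VprBP-labelled library 1 (adjusted p = 0.0221 and 0.0196). Mrps35 (log2 difference 0.17, adjusted p = 0.182) was called higher without VprBP-labelled library 1 (adjusted p = 0.0478). With scaling by library size only, Mrps25 and Mrps35 were called higher (adjusted p = 0.0193 and 0.0302). Exons shared over more than 10% of their length with another gene make the counts of 17 members uncertain, among them Mrpl53 (88.0%) and Mrps34 (63.4%). Mrpl24 (26.3%), Mrps27 (24.2%) and Mrps24 (15.4%) also belong to these 17. Without those 17, 18 of 39 large and 14 of 22 small members were lower.

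Names and structure part ways for 3 members. Mrps30 and Mrps18a carry small-subunit names but sit in the large subunit, and Mrps36 is a subunit of the oxoglutarate dehydrogenase complex and not of the ribosome. Mrps30 stood at 34.5, 35.6 and 31.6 CPM under the control label and 26.3, 26.1 and 25.8 CPM under the VprBP label, 1.30-fold lower (adjusted p = 4.03e-04). Mrps36 stood at 13.3, 14.6 and 16.7 CPM under the control label and 13.1, 14.5 and 13.04 CPM under the VprBP label, with overlapping groups, and was not called (adjusted p = 0.351). Mrps18a belongs to a family of 3 proteins related to bacterial S18, each of which takes a different place in the mitoribosome. It stood at 34.1, 30.3 and 34.2 CPM under the control label and 22.9, 17.4 and 16.5 CPM under the VprBP label, 1.74-fold lower (adjusted p = 4.24e-06). Mrps18c stood at 14.1, 12.3 and 16.2 CPM under the control label and 7.44, 5.99 and 7.98 CPM under the VprBP label, 1.98-fold lower (adjusted p = 1.28e-05), with 23.2% of its exon bases shared with Gm43511 on the same strand. With Mrps18b all 3 of the family fell. Assigned by structure, 25 of 51 large-subunit and 18 of 26 small-subunit genes were lower, with medians of -0.26 and -0.55, so the small subunit had the lower median and the larger lower share under either assignment.

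The proteins were also listed by origin, following the names used for the assembled ribosome, which class Mrps18a and Mrps18b as specific to mitochondria and Mrps18c as the homologue of S18. Of 30 large-subunit genes with a bacterial homologue, 14 were lower, 3 higher and 13 not called. Of 21 specific to mitochondria, 11 were lower, 3 higher and 7 not called (median log2 differences -0.24 and -0.26). In the small subunit, 11 of 16 genes with a bacterial homologue and 7 of 10 specific to mitochondria were lower (medians -0.52 and -0.77). Counted with the bacterial homologues instead, Mrps18a and Mrps18b gave 15 of 31 and 10 of 20 lower in the large subunit, and 12 of 17 and 6 of 9 in the small subunit (medians -0.55 and -0.76). By place in the ribosome, 2 of 7 genes of the central protuberance were lower, Mrpl38 and Mrpl46, and 1 was higher, Mrpl18. At the exit tunnel 3 of 6 were lower, at the stalk that binds translation factors 2 of 5 (Mrpl10 and Mrpl54), and along the messenger RNA channel of the small subunit 5 of 6, with Mrps28 as the exception (log2 difference 0.16, adjusted p = 0.368). Of all genes tested, 37.0% were called lower. The shares at the protuberance, exit tunnel and stalk lay on either side of that value, and that along the channel lay above it. These lists are short, and their differences from each other or from all genes were not tested. No effect of place in the ribosome can thus be read from them.

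Per kilobase of exon, the computed levels differed widely among members, although most of the proteins are present once per ribosome. The length used was that of all annotated exons of a gene merged, for example 607 bases for Mrpl34 and 8631 for Mrps35. Long or alternative exons can thus lower a value whatever the transcript level, and their part in the spread was not tested. The members' control-labelled levels ran from 1.24 to 48.1 CPM per kb, with quartiles of 7.54 and 18.3. The lowest was that of Mrpl23, whose counts are uncertain because of its pseudogene. The medians were 11.8 for the large and 12.7 for the small subunit in the control-labelled libraries, and 9.32 and 6.67 CPM per kb in the VprBP-labelled ones. The median of the small subunit was thus the higher in the control-labelled and the lower in the VprBP-labelled libraries. Mrpl34 was the highest of all members under both labels (48.1 and 54.0 CPM per kb). By the mean of the 2 label means, Mrpl2 (44.2 and 34.1 CPM per kb) and Mrpl52 (32.0 and 37.1 CPM per kb) came next, although under the control label Mrps18b (39.2 and 10.8 CPM per kb), Mrps23, Mrpl54, Mrps24 and Mrpl53 lay above Mrpl52, and under the VprBP label Mrpl52 lay above Mrpl2. Mrpl34 was measured at 28.7, 28.3 and 30.6 CPM under the control label and 35.2, 30.5 and 32.5 CPM under the VprBP label. Mrpl2, whose bacterial homologue lies at the core of the large subunit, was measured at 48.3, 45.5 and 61.3 CPM under the control label and 42.3, 35.3 and 42.1 CPM under the VprBP label. Mrpl52 was measured at 33.1, 32.5 and 40.7 CPM under the control label and 41.9, 39.4 and 42.2 CPM under the VprBP label. The Mrpl34 and Mrpl52 libraries overlapped between the labels, and the Mrpl2 libraries, lower in the VprBP-labelled group (adjusted p = 0.00267), did not. In the small subunit Mrps23 (35.5 and 20.9 CPM per kb) and Mrps24 (32.8 and 22.3 CPM per kb) were highest by that mean. Under the control label alone Mrps18b was the highest small-subunit member, and under the VprBP label alone Mrps33 (20.3 and 26.9 CPM per kb). Mrps23 was measured at 55.8, 55.3 and 54.8 CPM under the control label and 32.3, 30.6 and 35.0 CPM under the VprBP label. Mrps24 was measured at 43.3, 48.6 and 52.2 CPM under the control label and 38.9, 30.7 and 28.6 CPM under the VprBP label, and both genes were lower in all 3 VprBP-labelled libraries. Across the 78 members the order of control-labelled and VprBP-labelled levels in CPM was similar (Spearman's rho = 0.816, a description over genes, whose levels share their length and sequence).

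Some members share a promoter region with a neighbour that is read in the other direction. Of the 78, 23 (29.5%) had the start of a protein-coding gene of the opposite strand from 1000 bases before to 250 bases past their own start, against 12.0% of all protein-coding genes of the table. In 8 of the 23 pairs both genes were lower, in 5 the member was lower and its neighbour higher, and in 1 the reverse. These are 34.8%, 21.7% and 4.35% of the pairs, against 26.2%, 12.9% and 12.9% over the 1444 protein-coding genes of the table that have such a neighbour, both genes being tested. Where the member was lower, its neighbour was lower too in 44.4% of cases, against 52.9% over all such genes that were lower. The pairs named next were picked after their values were seen. Mrps18b and Ppp1r10, a regulatory subunit of a nuclear phosphatase, start 45 bases apart and both fell (log2 differences -1.85 and -1.49), and Mrps18c and the helicase gene Helq, 29 bases apart, fell by 0.99 and 0.90 on the log2 scale. Mrpl57 fell by 0.77 while Ska3, a kinetochore gene 49 bases away, rose by 2.94, and Mrpl51 fell by 0.26 while the condensin gene Ncapd2, 100 bases away, rose by 2.30. Mrpl49 rose by 0.51 and Fau, which encodes a cytosolic ribosomal protein, fell by 0.28 across 59 bases. Mrpl46 and Mrps11, 1 of each subunit, overlap head to head on chromosome 7, and both fell (log2 differences -1.07 and -0.49); reads from the shared stretch cannot be assigned without a stated strand setting.

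**Figure D5:**
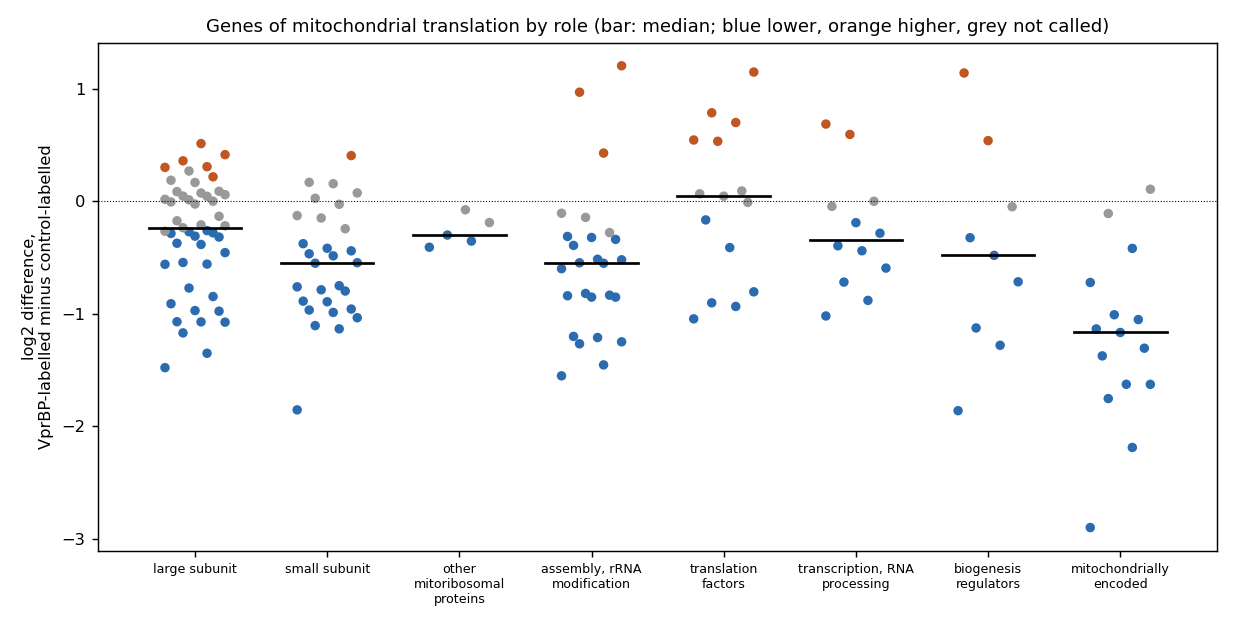
Log2 difference of each tested gene in 8 groups of mitochondrial translation, from the 2 subunits to the transcripts of the mitochondrial genome; each point is a gene, the bar is the group's median, and colours give the edgeR call. Most assembly genes lie below 0, the translation factors lie on both sides, and most mitochondrially encoded transcripts lie near or below -1.

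Of 5 mitoribosomal proteins with other names, 3 were lower (60.0%, against 37.0% of all genes tested). They were Gadd45gip1 (1.33-fold, 45.6 ± 2.23 and 34.3 ± 0.689 CPM), Ptcd3 (1.23-fold) and Aurkaip1 (1.28-fold). Chchd1 and Dap3 were not called (log2 differences -0.19 and -0.08). Among 26 genes that assemble the mitoribosome or modify its RNA, 20 were lower, 3 higher and 3 not called, with a median of -0.55. These are 76.9% lower and 11.5% higher, against 37.0% and 37.9% of all genes tested. Rcc1l, part of a module of proteins that handles the large ribosomal RNA, was 2.93-fold lower (34.4 ± 1.46 and 11.7 ± 1.44 CPM, adjusted p = 1.67e-10). The pseudouridine synthases Rpusd4 and Trub2 were 2.74-fold and 1.81-fold lower, and Mpv17l2, an inner membrane protein of assembly, 2.32-fold. The 3 that rose were Noa1 (1.96-fold), Rbfa (1.35-fold) and Mettl15 (2.30-fold), which act on the small subunit. The level of Mettl15 was very low (1.03 ± 0.503 and 2.36 ± 0.652 CPM, edgeR adjusted p = 0.0150), so its fold is poorly measured. Other factors of the small subunit in this list were lower, among them Eral1 (1.43-fold), Tfb1m (1.46-fold) and Ybey (1.76-fold).

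Next come the genes listed as mitochondrial translation factors, not all of which act on the ribosome itself. Of 15 tested translation factors, 6 were lower, 5 higher and 4 not called (median 0.05), shares of 40.0% lower and 33.3% higher that lay near the 37.0% and 37.9% of all genes tested. The elongation factor Tufm rose 1.72-fold from 41.9 ± 1.24 to 72.2 ± 3.63 CPM, and Guf1, another GTPase of the list, 2.22-fold. The initiation factor Mtif3 and the RNA-binding protein Slirp were 1.91-fold and 1.87-fold lower. Of 12 genes of mitochondrial transcription and RNA processing, 8 were lower (66.7%) and 2 higher (16.7%). Trmt10c, part of the enzyme that frees transfer RNAs from the primary transcript, was 2.03-fold lower, and Elac2, which trims their other end, 1.51-fold. Pnpt1, the mitochondrial polynucleotide phosphorylase, was 1.51-fold higher, and Hsd17b10, a partner of Trmt10c, 1.61-fold. The RNA polymerase Polrmt (76.5 ± 3.57 and 76.4 ± 6.80 CPM) and the DNA-packaging factor Tfam (27.4 ± 2.88 and 26.6 ± 1.11 CPM) were not called (adjusted p = 0.999 and 0.665).

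Of 9 regulators linked to the production of mitochondria, 6 were lower, 2 higher and 1 not called. These are 66.7% lower and 22.2% higher in a short list, against 37.0% and 37.9% of all genes tested. The growth regulator Myc was 3.64-fold lower (178 ± 4.53 and 49.02 ± 5.52 CPM), the coactivators Ppargc1a and Pprc1 2.43-fold and 1.64-fold, and the GABP subunits Gabpb1 and Gabpa 2.18-fold and 1.40-fold. Nrf1 was 1.25-fold lower (24.9 ± 2.16 and 19.9 ± 1.94 CPM, adjusted p = 0.00843), a call lost with scaling by library size only (adjusted p = 0.0767). The receptor Esrra and the coactivator Ppargc1b rose 1.45-fold and 2.20-fold. Yy1 was the regulator not called (147.7 ± 3.89 and 142.8 ± 4.81 CPM, log2 difference -0.05, edgeR adjusted p = 0.370). On the mitochondrial genome, 13 of 15 transcripts were lower (86.7%), all 13 of them messenger RNAs, with a median of -1.17 for the list. The strongest by p were mt-Cytb (4.56-fold lower, 10240.0 ± 535 and 2245 ± 165 CPM), mt-Nd4 (3.37-fold), mt-Co3 (3.09-fold) and mt-Nd1 (2.20-fold). The other 2 transcripts of the list are the ribosomal RNAs. The small-subunit RNA mt-Rnr1 stood at 480.3 ± 3.90 and 517 ± 40.7 CPM and the large-subunit RNA mt-Rnr2 at 564 ± 28.1 and 523 ± 56.8 CPM, and neither was called (log2 differences 0.11 and -0.11, adjusted p = 0.0585 and 0.115). Libraries made with an mRNA kit need not show the full amount of ribosomal RNA, and nuclear copies of the mitochondrial genome can share these reads.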

How the data were processed

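Per the labels' protocols, RNeasy columns gave the RNA and a SMARTer kit for mRNA the libraries. Partek software and build mm10 (GRCm38) were named, per the submitters' processing notes; which aligner, counter, strand setting and gene annotation were used is not given in the sources used here. The authors deposited expected counts per gene, unscaled; 62.1% to 64.5% of values in a library were whole within 0.001. All 78 members matched GENCODE M21 (GRCm38) by versioned ID, which gave coordinates, exon lengths and overlaps.

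After rounding, counts were tested with edgeR 4.0.16 under R 4.3.3 (quasi-likelihood F test, TMM, filterByExpr, group as the only term) over 14641 genes with Benjamini-Hochberg adjustment, calls being made at an adjusted p below 0.05. The code was tested on simulated data in which far fewer genes changed than were called here, as many up as down. That test does not speak for the scaling of these data. Means are given ± SD over 3 libraries, SE is the log2 difference over the root of F, and lists were described by counts and medians with no set test. Alternatives were other scalings and filters, DESeq2 1.42.0, limma-voom (limma 3.58.1), unrounded counts, a replicate block and leaving out each library.

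Members, lists and tests were chosen with earlier results of these data known. Every member could be named. Values in all libraries were given for the 6 Mrpl and 4 Mrps members with the largest called changes without overlap in each direction, the highest per length, the most abundant not called, Mrpl12, the Mrps18 family, Mrps30 and Mrps36. Of other lists, the 4 smallest p-values and fixed regulators were named, with others picked after their values were seen (Noa1, Rbfa, Mettl15, Eral1, Tfb1m, Ybey, Ppargc1b and Esrra among them). Motifs, divergent neighbours and the leaving out of members by shared exons or non-whole counts, and the other class of Mrps18a and Mrps18b, were added after the data were seen.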

Additional observations from a re-analysis of the deposited data

How the results depend on the processing

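The lower calls of the small subunit (20) and of the large subunit (23) came to 20 and 22 to 26 across the other tools, filters and scalings, apart from library size only. Over DESeq2 size factors, upper quartile scaling, omission of mitochondrial genome genes, both filters, DESeq2, limma-voom, unrounded counts and the block, no called member changed direction. DESeq2 did not call Mrpl41, Mrpl52 and Mrpl18 (adjusted p = 0.0772, 0.0509 and 0.0736). With library size only, large-subunit members called higher came to 11 (19 lower) and small-subunit members to 3 (20 lower), the medians to -0.12 and -0.43, and Dcaf1 to a log2 difference of -0.12 (adjusted p = 0.137). When members with non-whole counts were left out, fewer remained, and the lower share fell as well. In the large subunit 3 were higher and 7 lower of 18, against 23 lower of 49 in the main fit. That lower share lay near the 37.0% of all genes tested. In the small subunit 5 were lower of 10, against 20 of 29, with a median of -0.36 against -0.55. There 0 were higher by edgeR (0 at an unadjusted p under 0.05, 0 by DESeq2).

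Leaving out each library in turn gave 4 to 7 large-subunit members higher and 21 to 24 lower, 1 to 2 small-subunit members higher and 20 to 21 lower, medians of -0.25 to -0.17 and -0.63 to -0.48, a Dcaf1 log2 difference of -0.27 to -0.20, and 10637 to 10774 genes called (5381 to 5459 higher, 5255 to 5321 lower). Same-numbered libraries of the 2 labels had deviations that correlated at -0.03, 0.01 and -0.04, which gave no sign of pairing by number. Such values over all genes cannot exclude that same-numbered libraries shared an animal, culture or preparation. With the replicate block 10649 genes were called, and all 78 members stayed on their side of the threshold. At these depths the smallest changes called among the members were 1.16-fold up and 1.20-fold down.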
